A study of Mus musculus with 8 samples.

Results

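Primitive endoderm genes were followed through single mouse blastocysts of reciprocal crosses. The set was a list of 10 gene symbols, the transcription factors Gata6, Gata4, Sox17, Sox7, Foxa2 and Hnf4a, the receptor Pdgfra, and the endocytic genes Dab2, Cubn and Lrp2. Of these 10 genes, 9 had a row among the 22810 genes of the counts, and Foxa2 was not analysed here. Embryos were collected on embryonic day 3.5 (E3.5) after natural mating, without in vitro culture and without matching for sex, and each was sequenced on its own after SMART-Seq2 type amplification of cDNA from polyadenylated RNA. The forward cross paired a B6 mother with a cast father (3 embryos, numbered 1, 2 and 3), and the reverse cross paired a cast mother with a B6 father (5 embryos, numbered 1, 2, 3, 5 and 7). B6 is the C57BL/6 inbred strain of Mus musculus domesticus and cast a strain of Mus musculus castaneus, so every embryo was an F1 hybrid and no embryo carried an engineered allele or had been treated. The counts are reads spanning an annotated SNP between both strains, which were assigned to the maternal or the paternal allele. The maternal allele was B6 in the forward and cast in the reverse cross. Each embryo contributed 1060063 to 1632695 such reads, of which 57.4% to 58.3% came from the B6 allele. Embryos are the replicates, and the labels do not give their litters.

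Primitive endoderm is the epithelium that lines the inner cell mass of the late blastocyst and later forms the extraembryonic endoderm of the yolk sac. Its cells separate from the pluripotent epiblast under FGF to ERK signalling. They first express Gata6, and then Pdgfra, Sox17, Gata4 and Sox7, while epiblast cells keep Nanog. The endoderm takes up maternal nutrients by endocytosis, and it secretes a basement membrane. A whole blastocyst also contains epiblast and, in larger number, trophectoderm cells. A level measured in a whole embryo therefore cannot distinguish fewer primitive endoderm cells from less RNA per cell. It also does not show which cells the reads of a gene came from. Levels are given in RPM, which are reads per 1000000 SNP-spanning reads of an embryo. They cannot be compared between genes, because the number of SNPs differs from gene to gene.

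Libraries that stood apart are named before the results. Forward embryo 1 held 879.5 RPM over 12 macrophage markers, against 40.8 and 60.3 RPM in forward embryos 2 and 3 and 5.26 to 7.55 RPM in the reverse embryos, and 99.8% of these reads were maternal. Its 10 detected macrophage markers included Lyz2 and C1qb. Reverse embryo 1 held 1903 RPM over 12 trophectoderm markers, against 4332 to 4526 RPM in the other reverse embryos and 4724 to 5696 RPM in the forward embryos. The keratin Krt18 had 285 reads there and 1237 to 2482 reads elsewhere. The lower sum came mainly from Krt18 and the keratin Krt8, which was also lowest there, and does not describe every marker. Cdx2, Eomes and Krt7 were lowest in reverse embryo 1 as well, whereas Tead4, Tfap2c and Fgfr2 had their highest level of all embryos in it. The part of these differences in the results below was not tested, and values without these embryos are given where they change a call of a gene of the set.

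Among the transcription factors, Gata6, a zinc finger factor that initiates the primitive endoderm fate (chromosome 18), was covered by 1085 reads. It had 93.7, 129.4 and 101.8 RPM in forward embryos 1 to 3, and 154.1, 117.0, 38.7, 83.3 and 61.3 RPM in reverse embryos 1, 2, 3, 5 and 7. Its highest and its lowest level both lay in the reverse cross, and the crosses overlapped. The related factor Gata4, which acts later in the same lineage (chr14:63198922-63271692 in mm10, minus strand), had 87.6, 89.4 and 116.6 RPM in the forward embryos. In the reverse embryos it had 21.3, 12.5, 105.4, 31.5 and 34.0 RPM. Reverse embryo 3 thus lay among the forward embryos, and the other reverse embryos lay below all of them, with no embryo between 34.0 and 87.6 RPM. Sox17, an HMG-box factor of endoderm (chr1:4490931-4497354, minus strand), ranged most widely. It had 52.1, 9.55 and 24.3 RPM in the forward embryos and 2.66, 10.01, 24.0, 20.3 and 10.4 RPM in the reverse embryos, from only 4 to 85 reads per embryo. Its relative Sox7 (chr14:63943673-63950732, plus strand) was nearly undetected with 11 reads, which came from forward embryo 1 (6 reads), reverse embryo 3 (3 reads) and reverse embryo 5 (2 reads). In the remaining 5 embryos no read was counted, which allows up to 3 reads. Sox7 did not reach the minimum of 10 reads in at least 1 library and entered no test, so that 8 of the 9 genes were tested.

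Hnf4a, a nuclear receptor that drives genes of the differentiated visceral endoderm (chr2:163506808-163572910, plus strand), had 43.5, 26.1 and 25.8 RPM in the forward embryos. It had 90.4, 77.6, 28.7, 43.6 and 42.5 RPM in the reverse embryos. Reverse embryos 1 and 2, which were the lowest for Gata4, were the highest for Hnf4a. The antisense gene Hnf4aos overlaps Hnf4a over 34913 bases and had 350 reads, and 1010001N08Rik overlaps Gata6 over 504 bases and had 344 reads. Since use of strand in counting is not stated in the sources used here, reads of such overlapping pairs may not be separable.

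Pdgfra, the receptor for platelet-derived growth factor A that marks primitive endoderm precursors (chr5:75152292-75198215, plus strand), varied least. It had 94.9, 80.7 and 70.5 RPM in the forward embryos and 99.7, 46.9, 64.1, 83.3 and 67.0 RPM in the reverse embryos. The highest level was 2.12 times the lowest, against 9.32 times for Gata4 and 19.6 times for Sox17.

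Of the endocytic genes, Lrp2 and Dab2 held the most reads of the set, and Cubn did not. Lrp2 encodes megalin, a large scavenger receptor (chr2:69424340-69586065, minus strand), and had 7747 reads in all. It had 260.3, 339.5 and 518 RPM in the forward embryos and 1467, 942, 353, 969 and 694 RPM in the reverse embryos. All reverse embryos except embryo 3 were above all forward embryos. Cubn encodes cubilin, the partner of megalin (chr2:13276338-13491813, minus strand), and had 81.5, 25.2 and 57.9 RPM in the forward embryos and 31.2, 18.8, 28.7, 37.5 and 9.43 RPM in the reverse embryos. The partners therefore leaned in opposite directions between the crosses. Dab2, the adaptor that links these receptors to clathrin (chr15:6299788-6440712, plus strand), had 237.6, 293.5 and 221.5 RPM in the forward embryos and 414.6, 346.6, 170.8, 247.8 and 303.8 RPM in the reverse embryos. Macrophages also express Dab2. Forward embryo 1, with the macrophage transcripts, had 237.6 RPM of Dab2, and the part of these transcripts in that level was not tested.

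**Figure D1:**
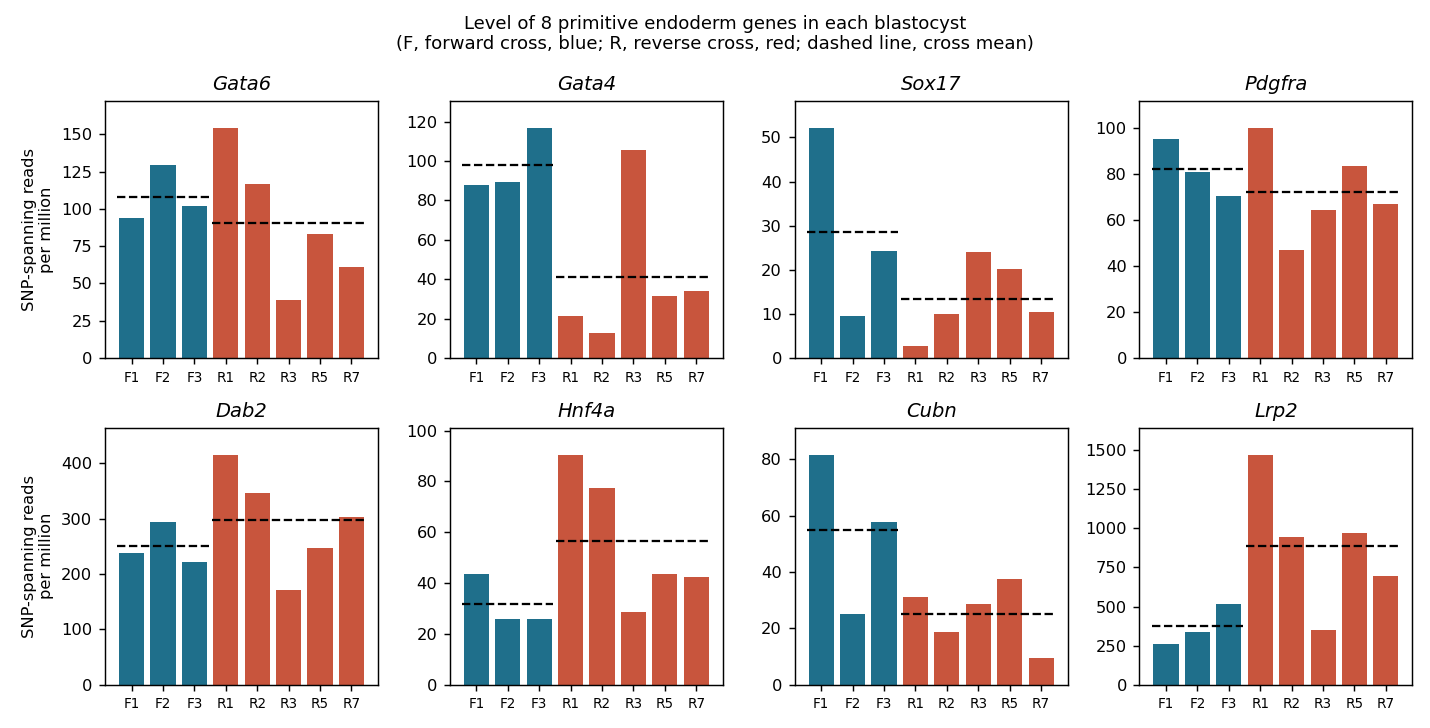
Level in RPM (y axes, linear and starting at 0, a scale of its own for each gene) in each of the 8 blastocysts (x axis) for the 8 genes tested, with the mean of each cross as a dashed line. Gata4 is at 87.6 to 116.6 RPM in the forward embryos and in reverse embryo 3 is at 105.4 RPM, while the other reverse embryos hold 12.5 to 34.0 RPM, and Lrp2 shows the opposite order.

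To ask whether the direction of the cross altered the total level, reverse embryos were compared with forward embryos with edgeR's quasi-likelihood test. None of the 8 genes was called at an adjusted p of at most 0.1. Of all genes tested, 0.0688% (9 of 13078) were called. Lrp2 was 2.30-fold higher in the reverse embryos (log2 1.202, SE 0.41, 95% confidence interval 0.33 to 2.08), with an edgeR adjusted p of 0.513. Cubn had a log2 difference of -1.09 (SE 0.47, interval -2.10 to -0.09, adjusted p = 0.62, edgeR). These were the 2 genes with an unadjusted p under 0.05, and DESeq2 also called 0 of 8 genes and gave 2 with an unadjusted p under 0.05. The means were 373 ± 132 RPM (SD, n = 3) and 885 ± 409 RPM (SD, n = 5) for Lrp2 and 54.9 ± 28.3 and 25.1 ± 11.1 RPM for Cubn. Gata4 averaged 97.9 ± 16.3 RPM in the forward and 40.9 ± 37.1 RPM in the reverse cross (log2 -1.13, SE 0.58, edgeR adjusted p = 0.704). Without reverse embryo 3 the difference of Gata4 was -2.04 on the log2 scale and was called (edgeR adjusted p = 0.0792), where 0.409% of all genes were called. Sox17 and Hnf4a differed by -0.996 (SE 0.66) and 0.81 (SE 0.40), and Gata6, Pdgfra and Dab2 by -0.29, -0.18 and 0.23, all on the log2 scale. For each of the 8 genes the ranges of both crosses overlapped, whereas 6.45% of all genes tested had ranges that did not.

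Embryos of the same cross differed more in some of these genes than in others. The biological coefficient of variation that edgeR assigned to embryos of a cross was lowest for Dab2 (0.319) and Pdgfra (0.321). It was 0.370 for Gata6, 0.385 for Hnf4a, 0.390 for Lrp2 and 0.464 for Cubn. It was highest for Gata4 (0.567) and Sox17 (0.635). The median over all genes tested was 0.488, so that Gata4 and Sox17 lay above it and the other 6 genes below it.

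The levels of these genes did not move as a single group across the 8 embryos. Gata4 and Hnf4a ran in opposite directions. Of 28 pairs of genes, 1 was called at an adjusted p of at most 0.1, which was Gata4 with Hnf4a. Its Pearson's r was -0.89 (exact permutation p = 0.00303, adjusted p = 0.0847, two-sided) and its Spearman's rho -0.93 (exact permutation p = 0.00223, adjusted p = 0.0625). Without reverse embryos 1 and 2, which were farthest from the median of Gata4, r was -0.75 over 6 embryos. However, the levels of Gata4 fell into 2 sets of 4 embryos, and neither set is large enough for a correlation of its own. With levels centred on the mean of each cross and permutations within crosses, no pair was called, and 9 pairs had an exact permutation p of at most 0.05. Gata4 and Hnf4a then had r = -0.84 (exact permutation p = 0.0208, adjusted p = 0.146). Leaving out forward embryo 3 gave an adjusted exact permutation p of 0.206 for this pair, and leaving out reverse embryo 1, 2, 3 or 5 gave 0.214, 0.178, 0.181 or 0.154.

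Further pairs had an unadjusted exact permutation p of at most 0.05, for 8 of the 28 pairs in all, and the adjusted p was 0.136 for each of the 7 that were not called. These were Gata4 with Lrp2 (r = -0.84) and with Dab2 (r = -0.77), Sox17 with Dab2 (r = -0.81) and with Lrp2 (r = -0.72), Dab2 with Hnf4a (r = 0.77), Gata6 with Dab2 (r = 0.75), and Hnf4a with Lrp2 (r = 0.74). Without the 2 embryos farthest from the median of the first gene of the pair, r over 6 embryos was -0.79 for Gata4 with Lrp2, -0.54 for Gata4 with Dab2, -0.89 for Sox17 with Dab2, 0.59 for Dab2 with Hnf4a and 0.84 for Gata6 with Dab2. It was only -0.15 for Sox17 with Lrp2 and 0.35 for Hnf4a with Lrp2, so that these values rested on forward embryo 1 and reverse embryo 1 and on reverse embryos 1 and 2, respectively. Some of these pairs were called when an embryo was left out. Without forward embryo 1 they were Sox17 with Dab2 (r = -0.90) and Hnf4a with Lrp2 (r = 0.90), each with an adjusted exact permutation p of 0.0778. Without forward embryo 2 they were Sox17 with Lrp2 (r = -0.87) and Dab2 with Hnf4a (r = 0.91), each with an adjusted exact permutation p of 0.0667. Without reverse embryo 7 it was Gata6 with Dab2 (r = 0.88, adjusted exact permutation p = 0.0944). Gata6 and Gata4, successive factors of the same lineage, had r = -0.36 (exact permutation p = 0.394, adjusted p = 0.552), and r = -0.86 when centred on the crosses (exact permutation p = 0.05, adjusted p = 0.156). Pdgfra had its highest r with Cubn (0.51), where the exact permutation p was 0.190 (adjusted p = 0.41).

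**Figure D2:**
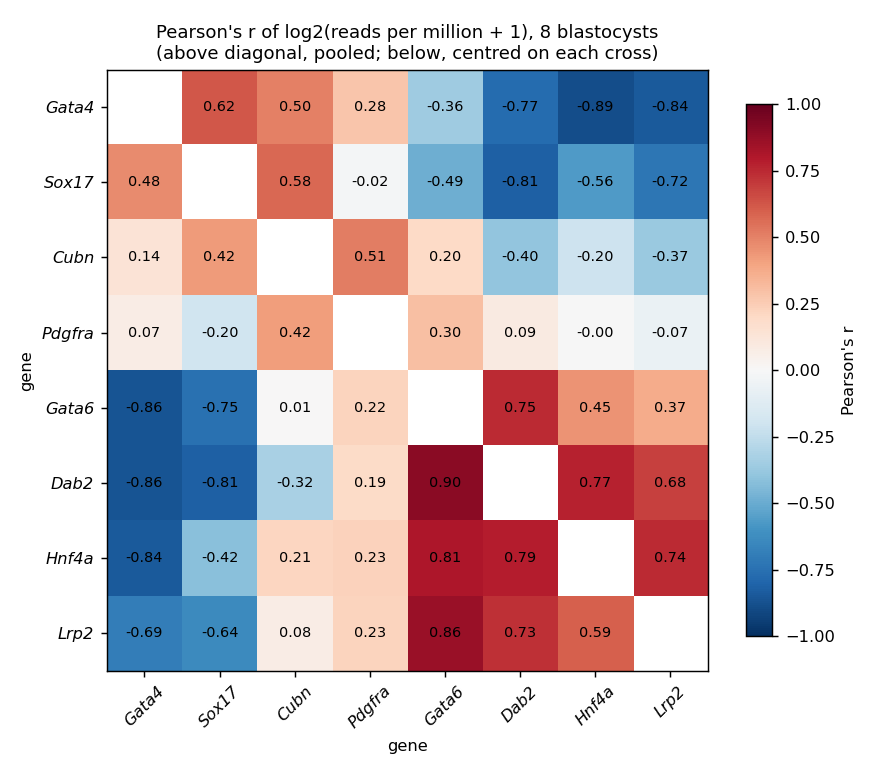
Pearson's r of log2(RPM + 1) over the 8 blastocysts for each pair of the 8 genes tested, pooled (above the diagonal) and with levels centred on the mean of each cross (below it). Gata4 and Sox17 have negative r with Dab2, Hnf4a and Lrp2 in both triangles, and the strongest pooled value is -0.89 for Gata4 with Hnf4a.

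The same division was seen in genes outside the set, and these included markers of other cell types. Lama1, a laminin subunit of the endodermal basement membrane, had 568.4, 454 and 650.5 RPM in the forward embryos and 156, 61.3, 631, 179 and 141 RPM in the reverse embryos. As for Gata4, reverse embryo 3 lay among the forward embryos and the other reverse embryos lay below. Sparc, a secreted matrix protein, had a different order, with 636, 296 and 395 RPM in the forward and 72.4, 508, 1010, 587 and 386 RPM in the reverse embryos. Lamb1, another laminin subunit, did not divide in this way either, with 470, 401 and 360 RPM in the forward and 256, 148, 312, 398 and 356 RPM in the reverse embryos. Eomes, a trophectoderm marker, had 241.9, 357.7 and 289.6 RPM in the forward and 49.2, 53.8, 245.6, 125.4 and 226.4 RPM in the reverse embryos. Msx1, listed for uterine and oviduct epithelium, had 61.9, 45.15 and 32.9 RPM in the forward embryos. It had 7.97, 1.88, 36.0, 3.00 and 1.89 RPM in the reverse embryos, from only 2 to 101 reads per embryo. Both had the order of Gata4, whereas the trophectoderm marker Gata3 did not. Lama1, Eomes and Msx1 were singled out after their values had been seen, and their likeness to Gata4 was not tested.

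**Figure D3:**
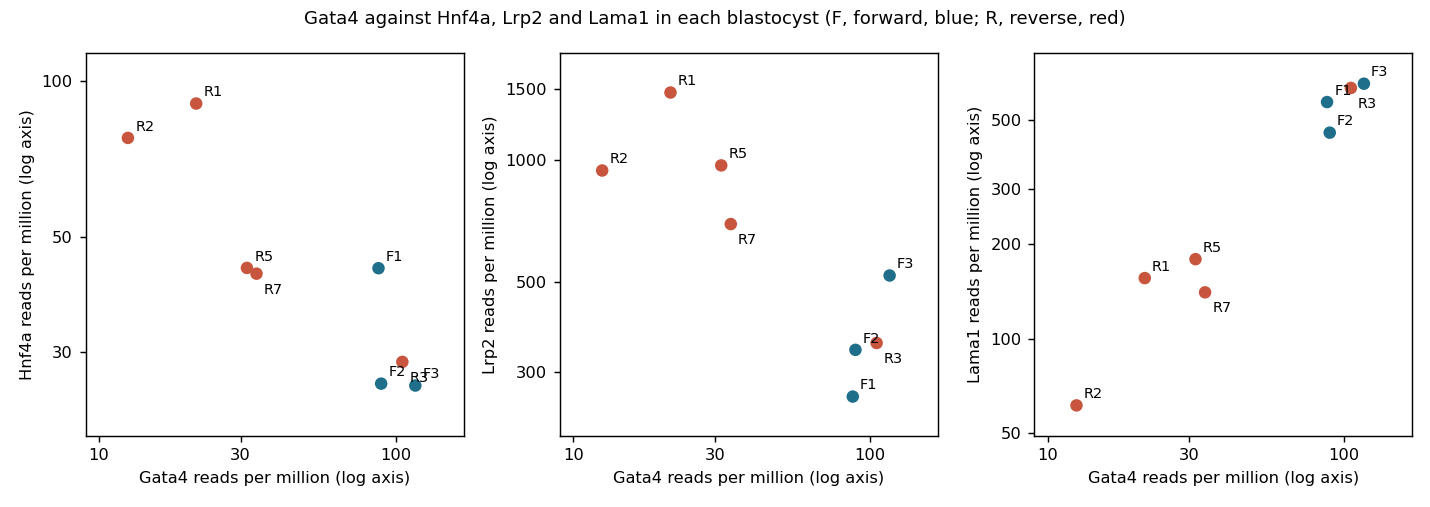
Hnf4a, Lrp2 and Lama1 against Gata4 in each of the 8 blastocysts, all in RPM on log axes, with forward embryos in blue and reverse embryos in red. The forward embryos and reverse embryo 3 lie at the right with 87.6 RPM or more of Gata4, low Lrp2 (260.3 to 518 RPM) and high Lama1 (454 to 650.5 RPM).

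Promoter sequences are shown for Dab2 and Hnf4a, because their r with Gata4 was negative and their windows held a GATA motif. Lrp2, whose r with Gata4 was also negative (-0.84), held no motif, and only the pair of Gata4 with Hnf4a was called. RefSeq windows of 300 bases (GRCm38.p6, which is mm10) around the start of transcription were at hand for 6 of the 10 genes, and Gata6, Gata4, Sox17 and Sox7 had no entry. The motif searched on both strands was GATA preceded by A or T and followed by A or G, and 29.8% of all 32851 windows held at least 1. It was present in 1 of 2 windows of Dab2, in 1 of 2 windows of Hnf4a and in 1 of 3 windows of Foxa2, and absent from the windows of Lrp2, Cubn and Pdgfra. The bases before the outermost annotated start are printed 5′ to 3′ for the plus strand with the motif in capitals, chr15:6299539-6299787 for Dab2 and chr2:163506607-163506810 for Hnf4a, where the motif reaches 3 bases past that start. A further match of the Dab2 window lay downstream of the printed bases. A match is a sequence only and was not tested for binding.
Dab2: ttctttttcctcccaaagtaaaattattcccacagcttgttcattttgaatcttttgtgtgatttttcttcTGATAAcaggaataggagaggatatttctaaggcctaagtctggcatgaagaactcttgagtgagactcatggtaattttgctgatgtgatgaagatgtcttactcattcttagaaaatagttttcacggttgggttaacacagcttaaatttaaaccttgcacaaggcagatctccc
Hnf4a: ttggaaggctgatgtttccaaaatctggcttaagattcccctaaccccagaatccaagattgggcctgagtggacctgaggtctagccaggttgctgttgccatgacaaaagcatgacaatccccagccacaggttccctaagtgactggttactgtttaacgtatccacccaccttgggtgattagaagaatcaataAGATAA

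To test for parent-of-origin-specific expression, paternal and maternal reads were compared over both crosses, while differences between strains were modelled beside them. None of the 8 genes was called by edgeR's quasi-likelihood test at an adjusted p of at most 0.1, and 1.42% of all genes tested were (179 of 12565). None had an unadjusted p under 0.05, and DESeq2 gave the same counts of 0. When a term for each embryo paired both alleles, 0 of 8 genes were called, against 3.1% of all genes (389 of 12565). Gata4 alone had an unadjusted p under 0.05 in that model. Its log2 paternal over maternal was 0.48 (SE 0.65), the largest difference of the 8 genes, and 0.82 (SE 0.39, edgeR adjusted p = 0.496) with the term for each embryo. The others were 0.12 (SE 0.25) for Pdgfra, 0.02 (SE 0.60) for Sox17, -0.05 (SE 0.57) for Cubn, -0.06 (SE 0.30) for Gata6, -0.07 (SE 0.41) for Hnf4a, -0.10 (SE 0.23) for Dab2 and -0.16 (SE 0.45) for Lrp2. The edgeR adjusted p was 1 for every gene. The study's criteria for skewed or imprinted expression require such a call and were thus met by none of the 8 genes.

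Equivalent expression from both parental alleles was tested against a margin of 1 on the log2 scale, which is a doubling. It was called for 4 of the 8 genes, which were Dab2 (edgeR adjusted p = 0.0166), Pdgfra (0.0198), Gata6 (0.0256) and Hnf4a (0.0656). Of all genes tested, 35.6% were called equivalent. With a term for each embryo 7 of the 8 genes were called, against 45.3% of all genes, and the added genes were Lrp2 (edgeR adjusted p = 4.09e-07, from 0.106), Cubn (0.0514, from 0.126) and Sox17 (0.0966, from 0.153). Gata4 was called in neither (0.34 and 0.477). The call of Hnf4a was lost without forward embryo 1, 2 or 3 or without reverse embryo 2 or 5 (edgeR adjusted p = 0.266, 0.12, 0.12, 0.113 and 0.108). In these fits fewer of all genes were called equivalent as well, with 17.1%, 14.7%, 12.9%, 30% and 27.5%. The call of Gata6 was lost without forward embryo 3 (edgeR adjusted p = 0.107), leaving 2 genes called, where 12.9% of all genes were called. Lrp2 and Sox17 were called without reverse embryo 1 (edgeR adjusted p = 0.0453 and 0.095), where 47.4% of all genes were called. With a margin of 1.5-fold none of the 8 genes was called, with 0 called among all 12565 genes.

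The paternal share of Gata4 varied between embryos of the reverse cross (74.4% ± 26.4, SD, n = 5), as did those of Cubn (74.7% ± 26.7) and Sox17 (52.0% ± 32.6). That of Gata4 was 52.4%, 59.2% and 50.3% in the forward embryos, from 103 to 149 reads. In reverse embryos 1 and 2 all 32 and all 20 reads were paternal, so that up to 9.38% and 15.0% maternal reads (3 reads) remain possible. In reverse embryos 3, 5 and 7 the paternal share was 56.3%, 40.5% and 75.0%, and reverse embryo 7 had 9 maternal and 27 paternal reads. Genes without a maternal read were more frequent in the same embryos. Among genes with 20 to 60 reads, the maternal allele had no read for 11.9% in reverse embryo 1 and 6.26% in reverse embryo 2, and for 3.54% to 5.04% in the other reverse embryos. Leaving out reverse embryo 1 or 2 gave a log2 paternal over maternal of 0.38 or 0.41 for Gata4, and leaving out each embryo in turn gave 0.38 to 0.71. Since reads carry no molecular identifiers, copies of a single cDNA molecule cannot be told from separate molecules, and the limits and intervals cover counting error only.

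Dab2 and Lrp2, which had the most reads, stayed near equal shares. The paternal share of Dab2 was 44.1%, 39.9% and 43.8% in the forward and 60.6%, 58.1%, 51.6%, 51.2% and 48.4% in the reverse embryos. That of Lrp2 was 36.9%, 46.6% and 42.0% in the forward and 54.9%, 51.7%, 51.6%, 56.5% and 47.0% in the reverse embryos, where the 46.6% of forward embryo 2 rests on 391 reads (95% Wilson interval 41.7% to 51.5%). For both genes and for Hnf4a the forward shares lay below all reverse shares, which is the direction of the general excess of B6 reads. Among all genes with at least 10 reads in each embryo, the shares of both crosses did not overlap for 35.3% (2531 of 7161), and among the 7 genes of the set with such reads for 3. Gata6 had paternal shares of 47.1%, 48.3% and 60.8% in the forward and 47.0%, 54.0%, 31.0%, 42.3% and 49.2% in the reverse embryos. Pdgfra had 41.3%, 38.7% and 48.9% in the forward and 68.7%, 64.0%, 47.9%, 70.3% and 57.7% in the reverse embryos.

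**Figure D4:**
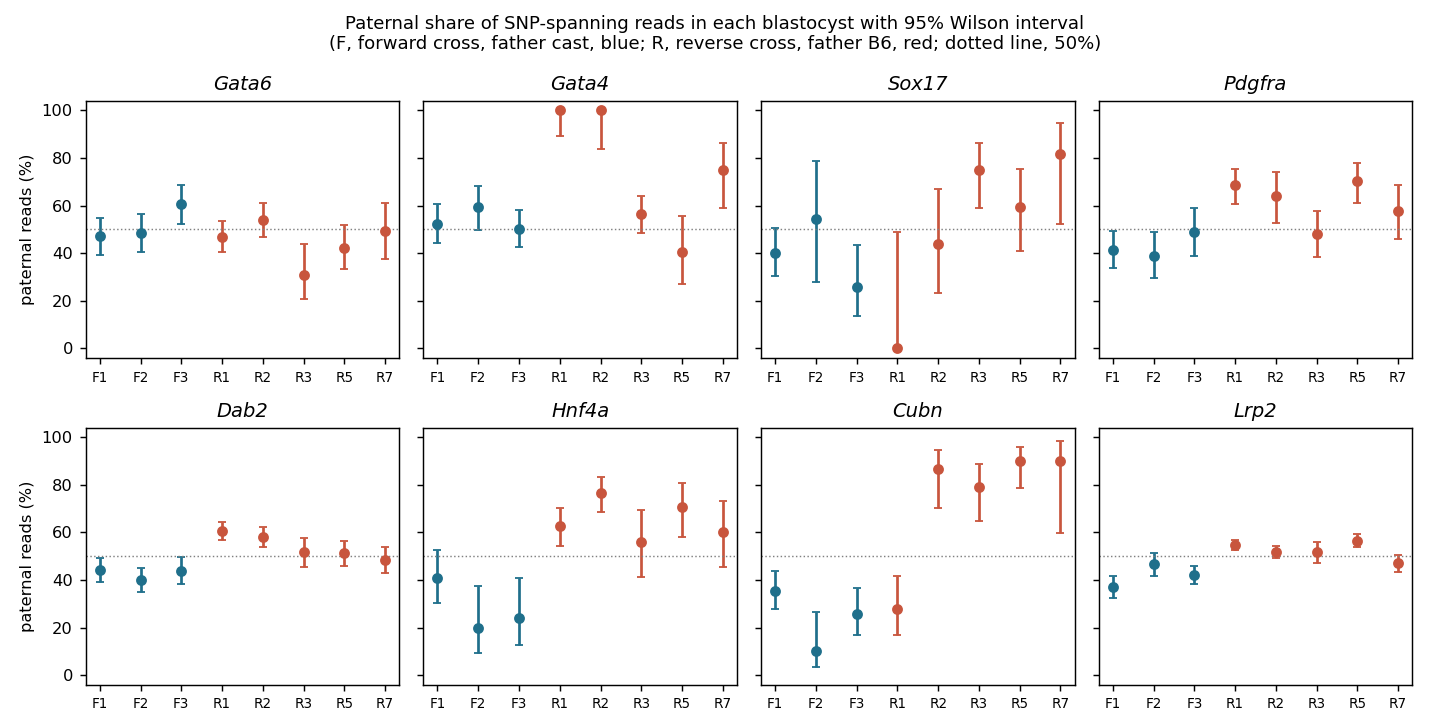
Paternal share of the SNP-spanning reads (y axis, percent) in each of the 8 blastocysts (x axis) with its 95% Wilson interval, for the 8 genes tested. Cubn and Hnf4a lie below 50% in the forward embryos (father cast) and, except for Cubn in reverse embryo 1 at 27.7%, above 50% in the reverse embryos (father B6), and Gata4 is at 100% in reverse embryos 1 and 2.

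The strain of the allele was compared in the same model, as B6 over cast. Each allele library has its own size here, so that a difference is relative to the general excess of B6 reads, and the median over all genes tested was 0.06 on the log2 scale. With a single library size per embryo this median was 0.39. None of the 8 genes was called at an adjusted p of at most 0.1 by edgeR, against 15.5% of all genes tested. None had an unadjusted p under 0.05 by edgeR or by DESeq2. The largest differences were those of Cubn with 1.01 (SE 0.55, edgeR adjusted p = 0.287), Hnf4a with 0.71 (SE 0.41, adjusted p = 0.324) and Gata6 with -0.49 (SE 0.30, adjusted p = 0.358). With a term for each embryo these 3 genes were called, Cubn at 1.32 (edgeR adjusted p = 0.0346) and Hnf4a at 0.78 (0.0682) toward B6, and Gata6 at -0.53 (0.0663) toward cast. In that model 25.5% of all genes were called. With a single library size per embryo only Hnf4a was called (log2 1.05, edgeR adjusted p = 0.0853), where 20.9% of all genes were called. Sox17, Pdgfra, Dab2, Lrp2 and Gata4 had log2 differences of 0.45, 0.23, 0.02, -0.03 and -0.05, of which the last 2 were 0.31 and 0.26 with a single library size per embryo.

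Cubn and Hnf4a had the largest differences between strains, which were not called without a term for each embryo, and are given in single embryos. B6 reads are the larger part in general, with 57.4% to 58.3% of all reads of an embryo. Pdgfra, Dab2 and Lrp2 also had more B6 than cast reads in 7 of 8 embryos. Cubn had 86 B6 and 47 cast reads in forward embryo 1, 26 and 3 in forward embryo 2, and 55 and 19 in forward embryo 3. In the reverse cross it had 26 B6 and 4 cast reads in embryo 2, 34 and 9 in embryo 3, 45 and 5 in embryo 5, and 9 and 1 in embryo 7, so that B6 reads were in excess in 7 of 8 embryos. Reverse embryo 1 was the exception with 13 B6 and 34 cast reads. Without it, the log2 B6 over cast of Cubn was 1.48 and was called (edgeR adjusted p = 0.0732), where 20.6% of all genes were called, and its log2 paternal over maternal was 0.39 in place of -0.05. Hnf4a had more B6 than cast reads in all 8 embryos, with B6 shares of 59.2%, 80% and 75.8% in the forward and 62.5%, 76.6%, 55.8%, 70.7% and 60% in the reverse embryos. Its share of 55.8% in reverse embryo 3 lay below the general share of B6 reads, and those of 59.2% and 60% lay near it. Sox17 had 60%, 45.5% and 74.2% B6 reads in the forward and 0%, 43.8%, 75.0%, 59.3% and 81.8% in the reverse embryos, where the value of 0% rests on 4 reads and allows up to 75.0%.

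**Figure D5:**
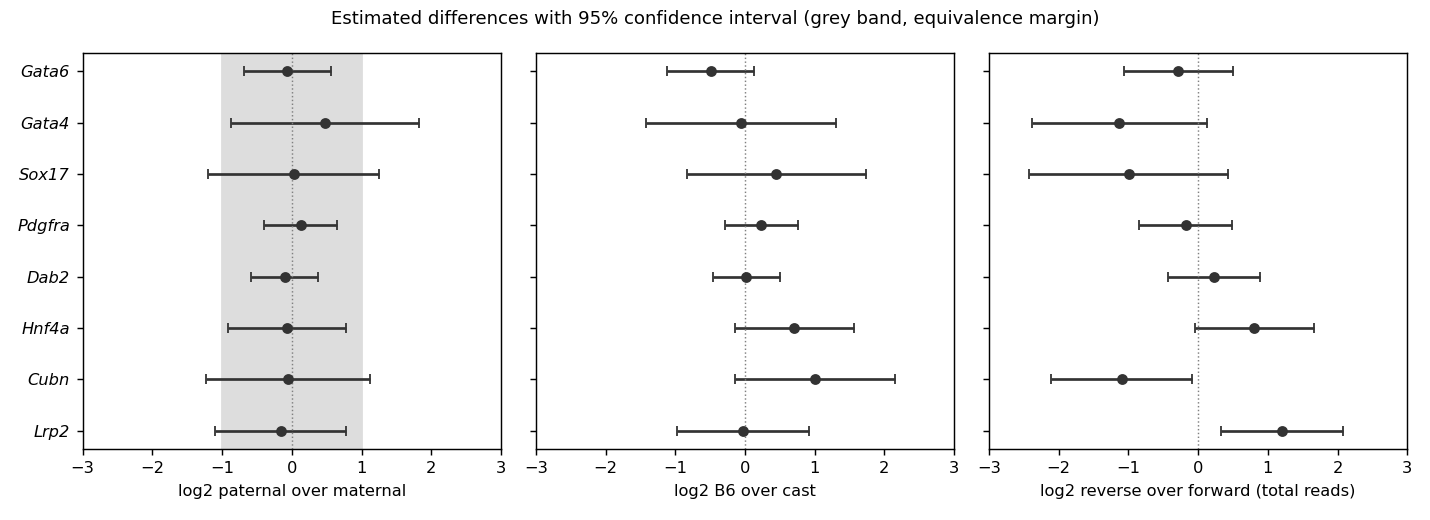
Log2 differences (x axes) of the 8 genes tested with 95% confidence intervals, for paternal over maternal alleles, B6 over cast alleles, and reverse over forward total reads. Parental and strain intervals are from the model without a term for each embryo, which does not pair both alleles, and each includes 0. With that term Cubn (1.32, SE 0.44), Hnf4a (0.78, SE 0.30) and Gata6 (-0.53, SE 0.20) were called between strains. In the comparison of crosses the intervals of Lrp2 (0.33 to 2.08) and Cubn (-2.10 to -0.09) do not include 0.

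Other genes of the same lineage were grouped in lists. Of 12 basement membrane genes, which encode laminins, type IV collagens and their modifying enzymes, 12 were tested. By edgeR none was called between parental alleles or between crosses, 5 were called equivalent, and 6 were called between strains. Over all genes tested, 1.42% were called between parental alleles, 0.0688% between crosses, 35.6% equivalent and 15.5% between strains, and these shares apply to every list. The collagen chaperone Serpinh1 (log2 B6 over cast 3.39), the prolyl hydroxylase P4ha2 (3.28), Sparc (1.83) and the nidogen Nid1 (1.45) were higher from B6, and the lysyl hydroxylase Plod2 (-1.63) and the laminin Lamb1 (-0.98) from cast. With a term for each embryo 2 were called toward paternal, Lama1 and P4ha2, where 2.08% of all genes were called toward paternal. In the comparison of crosses the median log2 difference of these 12 genes was -0.66, against 0.08 over all genes tested. The median was -0.37 for trophectoderm markers, -0.47 for markers of uterine and oviduct epithelium and -1.01 for only 3 tested cumulus and granulosa markers. Of these 3, Nr5a2, with 6354 reads, was at 0.51, and Fshr and Star, with 38 and 68 reads, were at -1.01 and -1.28. The part of such markers in the difference was not tested. Of 22 other primitive endoderm genes, 18 had an autosomal row and 11 were tested. The bZIP factor Creb3l2, with 148 maternal and 558 paternal reads, was called toward paternal (log2 2.19, SE 0.51, edgeR adjusted p = 0.0293). It was the only gene of this list called in that test, in which 1.11% of all genes were called toward paternal. Between strains, Amn (3.07), the subunit that brings cubilin to the membrane, was called toward B6 and the FGF co-receptor Klb (-2.73) toward cast. Apoe and Lrpap1, the chaperone of megalin, were called equivalent, and no gene was called between crosses. With a term for each embryo 7 of these 11 genes were called between strains, where 25.5% of all genes were called.

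Of 13 tested genes of FGF to ERK signalling none was called between parental alleles or crosses, 9 were called equivalent and 2 toward B6 (the factor Etv5 and the kinase Map2k1). Here and for the lists below, 35.6% of all genes tested were called equivalent and 15.5% between strains. With a term for each embryo, 2 were called toward B6 and 2 toward cast, where 25.5% of all genes were called between strains. The receptor Fgfr2, with 3210 reads, had a log2 paternal over maternal of 0.22 and was called equivalent (edgeR adjusted p = 0.0235), as was Fgfr1 (0.0166). Of 11 tested epiblast markers, 0 were called between parental alleles, 6 equivalent, 3 between strains (Tdgf1 1.92 and Utf1 2.15 toward B6, Klf4 -0.84 toward cast) and 0 between crosses. Utf1 was called toward paternal with a term for each embryo. Nanog, the factor opposed to Gata6, had 61.9, 47.7 and 54.8 RPM in the forward and 105, 129, 86.1, 59.3 and 137 RPM in the reverse embryos (log2 0.93, SE 0.34, edgeR adjusted p = 0.556). This was the largest rise of the 11 tested epiblast markers, and others such as Sox2 (-0.60), Tdgf1 (-0.58) and Klf4 (-0.47) were lower in the reverse cross. Their median log2 difference between crosses was 0.087, against 0.083 over all genes tested. Of 11 tested trophectoderm markers, 0 were called between parental alleles or crosses, 8 were called equivalent and 3 toward B6 (Krt8, Id2 and Tfap2c, and 6 in either direction with a term for each embryo). Of 7 tested macrophage markers, Lyz2 (-7.40) and C1qb (-7.53) were called toward maternal, both were lower in the reverse cross, and Lyz2, C1qb and Adgre1 were called toward B6. The term for each embryo left only Lyz2 called toward maternal and only C1qb toward B6. Of 7 tested markers of uterine and oviduct epithelium, 0 were called between parental alleles or crosses, 3 were called equivalent and 3 between strains (Epcam and Ovgp1 toward B6, Wfdc2 toward cast), of which Ovgp1 was not called with a term for each embryo. Of 3 tested cumulus and granulosa markers, Nr5a2 was called equivalent and none was called otherwise. Where a list had 0 calls between parental alleles, an unadjusted p under 0.05 was found for 2 basement membrane genes, 1 epiblast marker and 0 genes of the other such lists, by edgeR and by DESeq2 alike. Where a list had 0 calls between crosses by edgeR, it gave an unadjusted p under 0.05 for 2 basement membrane genes, 2 trophectoderm markers, 1 epiblast marker and 1 epithelial marker. DESeq2 gave such a p for 3, 2, 1 and 2. It called 1 basement membrane gene between crosses, where it called 1.04% of all genes tested (136 of 13078).

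Among 9939 genes with at least 80 reads, levels much like that of Gata6 over the 8 embryos were those of Mark1 (r = 0.976), Btg1 (0.975), Ago2 (0.968) and Fam21 (0.967). These values are descriptive and share the library of each embryo. Dab2 ranked highest of the set at position 890, and Hnf4a, Lrp2, Pdgfra and Cubn followed at 3278, 3803, 4222 and 4790. Gata4 and Sox17 ranked at 7715 and 8424, each with a negative r.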

How the data were processed

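RNA of single E3.5 blastocysts was analysed, 3 of the forward and 5 of the reverse cross. The authors deposited raw counts, in which each SNP-covering read is assigned to a gene, an embryo and a strain. According to the methods, the authors aligned reads to mm10 with STAR (2.5.2b in the submitters' processing notes, another version in the methods), left out reads mapping to multiple locations, kept reads covering annotated SNPs, counted with Allelome.Pro (its intermediate output), and removed further samples. Each embryo gave a maternal and a paternal library (16 in all).

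Gene positions came from GENCODE M21 and then RefSeq by symbol (1110 of 22810 genes unmatched). Autosomal genes with at least 10 reads in at least 1 library of the fit were tested with edgeR 4.0.16 (R 4.3.3, limma 3.58.1), TMM factors, the quasi-likelihood test with package defaults and Benjamini-Hochberg adjustment over all genes tested. Calls needed an adjusted p of at most 0.1. Allele counts were modelled with strain and parent, equivalence with a pair of one-sided tests, and total reads by cross. Correlations used log2(RPM + 1), a pseudocount of 1, genes with at least 80 reads and exact permutation tests. Tests were tried on simulated data. Alternatives were DESeq2 1.42.0, RLE size factors, 2 other filters, a single library size per embryo, a term for each embryo, another margin, scaling or pseudocount, and each embryo left out, with legacy = FALSE chosen after seeing the data. Permuting within crosses for centred levels was also chosen after seeing the data.

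Maternal and paternal libraries of an embryo are true pairs. Their deviations from the group means correlated over 8099 genes with r = 0.138, 0.107 and 0.21 (forward) and r = 0.617, 0.29, 0.556, 0.218 and 0.208 (reverse).

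The genes of the set and all lists were chosen with earlier results of these data known. Named were the genes of the set, the 3 genes with most reads of each other list where they bear on a result, every list gene called between alleles or crosses, and the 5 genes most like Gata6. Some genes named by this rule are not reported here. Nanog falls outside this rule and was chosen after its values were seen.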

Additional observations from a re-analysis of the deposited data

Results flagged for a closer look

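Of 16 groups of reverse embryos examined for a sample far from the others (levels and paternal shares of 8 genes), 2 held one, and chance alone gives about 1 in 20. Gata4 had 105.4 RPM in reverse embryo 3, against 12.5 to 34.0 RPM in the other reverse embryos. The paternal share of Cubn was 27.7% in reverse embryo 1, against 79.1% to 90.0% in the other reverse embryos.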

How the results depend on the processing

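No gene of the set was called between parental alleles under any alternative run. With a term for each embryo, the replicate block, 3 genes were called between strains in place of 0 and 7 were called equivalent in place of 4, and the calls of the 8 genes between parental alleles did not change. A block on the embryo number between crosses called 0 genes by total reads, and these numbers are only names. A single library size per embryo gave 1 gene called between strains, and a margin of 1.5-fold gave 0 called equivalent. Leaving out each embryo gave 0 to 1 genes called between strains, 2 to 6 called equivalent, 0 to 1 called by cross and 0 to 3 called pairs. Of all genes, 9.9% to 20.6% were then called between strains, 12.9% to 47.4% equivalent and 0.0236% to 1.28% by cross. TMM sizes gave 2 called pairs (Sox17 with Dab2 added) and centring on each cross 0. Signs of small differences reversed. With the term for each embryo, the log2 paternal over maternal was -0.10 for Sox17 and 0.022 for Cubn and the log2 B6 over cast of Gata4 was 0.28. With legacy = FALSE, the log2 paternal over maternal was -0.12 for Sox17 and 0.034 for Hnf4a. A single library size per embryo gave a log2 B6 over cast of 0.26 for Gata4 and 0.31 for Lrp2. Leaving out each embryo, the log2 paternal over maternal ranged from -0.19 to 0.016 for Gata6, from -0.18 to 0.18 for Sox17, from -0.33 to 0.051 for Hnf4a and from -0.33 to 0.39 for Cubn, and the log2 B6 over cast from -0.15 to 0.16 for Gata4, from -0.038 to 0.063 for Dab2 and from -0.076 to 0.018 for Lrp2. The cause was not tested. No difference between crosses reversed. Equivalence was not run with legacy = FALSE. Depth limits the shares in single embryos, since Sox17 fell to 4 reads, Cubn to 10, Gata4 to 20 and Hnf4a to 30 reads in an embryo.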
